A study of Mus musculus with 16 samples.

Results

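MiR-129 is a microRNA made from a pair of hairpin genes, Mir129-1 and Mir129-2, and it was read here as 3 mature names out of the 1978 in the count table. These are mmu-miR-129-5p, which both hairpins give, and 1 opposite arm from each locus, mmu-miR-129-1-3p and mmu-miR-129-2-3p (written without mmu below). The members were taken by name, and all 3 passed the filter on low counts that left 483 miRNAs for testing. Small RNA was sequenced from primary cultures of perinatal mouse forebrain neurons, all transduced with a lentiviral vector. The groups carried an shRNA bearing 5 point mutations (shRNA_5bp), one bearing 2 (shRNA_2bp), the unmutated shRNA (shRNA) or an empty vector (Empty_Vector), with 4 libraries each. The study asked how hairpins alter neuronal miRNAs apart from their target. The target of the hairpin, the promoter that drives it and the animals behind each culture are not given in the sources used here, nor is it stated that libraries of a group came from separate cultures, so p-values measure the spread between these libraries.

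A microRNA hairpin is cut out of its primary transcript by Drosha, exported, and trimmed by Dicer to a duplex, from which usually a single strand is kept in an Argonaute protein while the other is discarded. Short hairpin RNAs enter that same route. MiR-129-5p is the strand generally studied in brain: in rat hippocampal neurons it represses the potassium channel Kv1.1 and takes part in homeostatic synaptic downscaling, the weakening of excitatory synapses when activity stays high. The 3p arms carry other seeds and so would pair with other messages.

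The arms are shown with the seed, bases 2 to 8 from the 5′ end, in capitals, because the seed sets which messages a microRNA pairs with and separates the 5p from the 3p strand (sequences from RefSeq, GRCm38.p6).
miR-129-5p: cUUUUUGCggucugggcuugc
miR-129-2-3p: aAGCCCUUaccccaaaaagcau
Of 1679 names of the table that have a sequence in RefSeq, no other carried the seed of miR-129-5p or that of miR-129-2-3p.

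The hairpins are shown because the 5p read cannot be assigned to a locus while the 3p read can, by a single base. Capitals mark the 5p arm and the 22 bases that align with miR-129-2-3p.
Mir129-1: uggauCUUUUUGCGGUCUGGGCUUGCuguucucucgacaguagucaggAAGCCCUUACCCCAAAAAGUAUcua
Mir129-2: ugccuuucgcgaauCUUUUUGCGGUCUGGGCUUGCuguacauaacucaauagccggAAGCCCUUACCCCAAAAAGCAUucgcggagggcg
The 21 bases of the 5p arm were identical in both hairpins. The 3p stretches differed at 1 of 22 bases, C20U, counted from the 5′ end with the base of miR-129-2-3p first. The seed is therefore the same on both 3p sides, and a 3p read that ends before base 20 matches both loci. How such reads were counted, and how many mismatches were allowed, is not given in the sources used here, so the split between miR-129-1-3p and miR-129-2-3p is uncertain to that extent. Elsewhere in the table, 24 names with more than 100 counts formed 11 sets with the same counts in all 16 libraries, such as let-7a-1-3p and let-7c-2-3p, so reads that match several names were counted under each there. No miR-129 name was among them, but a 3p read that matches both loci may likewise stand under both.

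Mir129-1 lies on the plus strand of chromosome 6 at chr6:29022619-29022691 (GRCm38.p6), in an exon of the long intergenic non-coding RNA Gm3294 on the same strand, 37529 bp before the leptin gene Lep in the GENCODE M21 annotation. Mir129-2 lies on the minus strand of chromosome 2 at chr2:94241364-94241453, in an intron of the non-coding host gene Mir670hg on the same strand. Opposite Mir129-2, on the plus strand, RefSeq places a further hairpin, Mir129b (chr2:94241378-94241442), whose 65 bases lie wholly inside the Mir129-2 span. Its products were close to absent: miR-129b-5p had 6 counts and miR-129b-3p had 1 count over all 16 libraries together, and neither passed the filter.

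Library totals ranged from 0.832 M to 2.5 M counts in shRNA_5bp, 1.18 M to 2.1 M in shRNA_2bp, 5.3 M to 8.06 M in shRNA and 2.76 M to 11.1 M in Empty_Vector, so depth moved with the group. Its part in the results was not tested beyond thinning every library to the smallest total. The lowest count behind any miR-129 value was 9356 reads for miR-129-5p, 265 for miR-129-2-3p and 43 for miR-129-1-3p, each in 1 shRNA_2bp library. Levels are given as CPM, the share of a library's scaled total on the usual counts-per-million scale, and rose or fell means that the adjusted p in edgeR's quasi-likelihood test was below 0.05 over the 483 miRNAs. Of the marker miRNAs, the 6 neuronal ones (miR-124-3p, miR-128-3p, miR-9-5p, miR-137-3p, miR-138-5p and miR-218-5p) held 34.3 to 37.4% of the counts of a library in shRNA_5bp, 34.9 to 36.1% in shRNA_2bp, 40.5 to 42.2% in shRNA and 45.6 to 47.3% in Empty_Vector. Most of that sum was miR-128-3p, with 243455 CPM in shRNA_5bp, 240704 CPM in shRNA_2bp, 331124 CPM in shRNA and 427008 CPM in Empty_Vector, which fell with every hairpin. Against Empty_Vector, 3 of the 6 rose and 2 fell in shRNA_5bp, 2 rose and 3 fell in shRNA_2bp, and 1 rose and 2 fell in shRNA. Of all tested miRNAs 31.5% rose and 26.7% fell in shRNA_5bp, 33.3% and 32.3% in shRNA_2bp, and 19.7% and 15.1% in shRNA. The 5 microglia and leukocyte markers held 0.00709 to 0.00903% in shRNA_5bp, 0.00888 to 0.011% in shRNA_2bp, 0.00753 to 0.0105% in shRNA and 0.00451 to 0.0057% in Empty_Vector. Of these 5, miR-142a-3p and miR-223-3p had 0 counts in every group and miR-142a-5p in shRNA_5bp, while miR-146a-5p rose with every hairpin and miR-155-5p rose in shRNA by 2.19 on the log2 scale (edgeR adjusted p = 1.35e-07). The 7 vascular and fibroblast markers held 0.125 to 0.135% in shRNA_5bp, 0.121 to 0.142% in shRNA_2bp, 0.065 to 0.0788% in shRNA and 0.0645 to 0.0752% in Empty_Vector. Most of this sum was miR-126a-3p, with 1099 CPM in shRNA_5bp, 1134 CPM in shRNA_2bp, 675 CPM in shRNA and 735 CPM in Empty_Vector. Of the 5 that were tested, 3 rose in shRNA_5bp, 3 in shRNA_2bp and 0 in shRNA, and 0 fell. The 3 astroglia-leaning markers held 0.224 to 0.249%, 0.367 to 0.397%, 0.203 to 0.236% and 0.167 to 0.185% in the same order of groups. The part of these markers in the miR-129 results was not tested.

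MiR-129-5p was one of the abundant miRNAs of these neurons, between rank 10 and rank 19 of all names in every library. It stood at 15872, 17167, 16251 and 14032 CPM in the shRNA_5bp libraries, at 7765, 8132, 9157 and 7655 CPM in shRNA_2bp, at 16854, 16303, 17986 and 14677 CPM in shRNA, and at 10669.8, 10717, 11182 and 9982 CPM in Empty_Vector. The shRNA_5bp and shRNA libraries shared a range above all Empty_Vector libraries, and all shRNA_2bp libraries lay below them. The means were 15831 ± 1317 CPM in shRNA_5bp, 8178 ± 684 CPM in shRNA_2bp, 16455 ± 1377 CPM in shRNA and 10638 ± 494 CPM in Empty_Vector (SD, n = 4 each). In the order of levels, shRNA and shRNA_5bp at the top overlapped, and no other neighbours did.

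**Figure D1:**
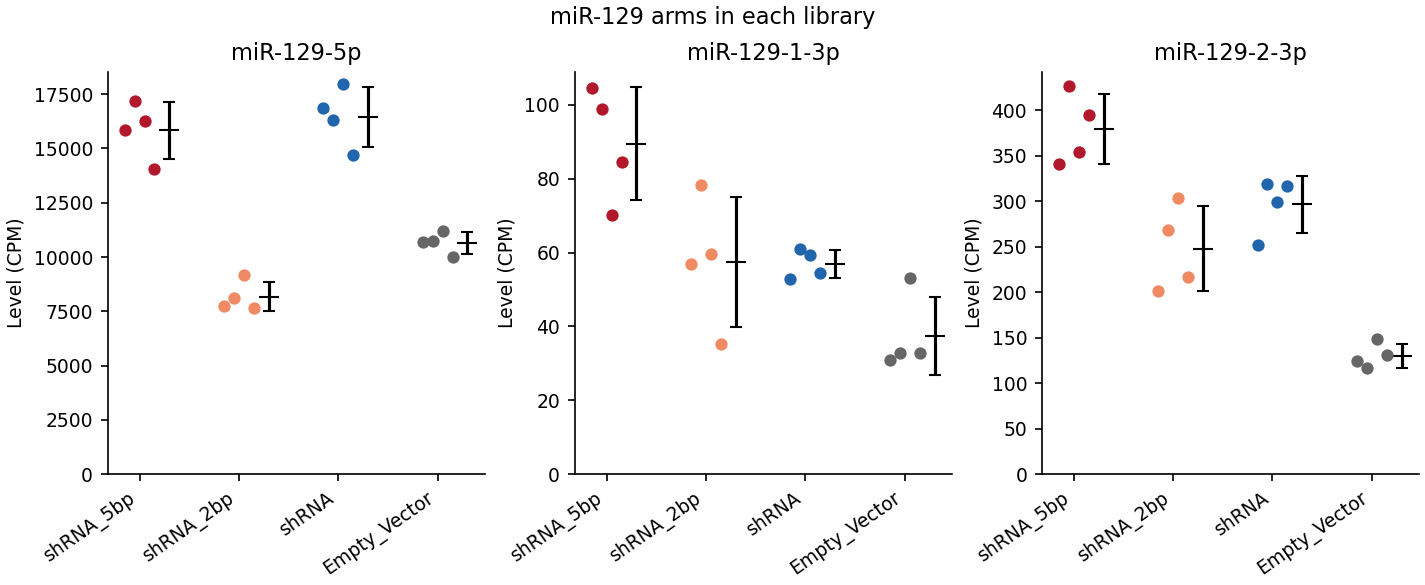
Level of each miR-129 arm in CPM, with 1 point per library and the group mean ± SD beside the points (4 libraries per group). The 5p arm is lowest in shRNA_2bp (7655 to 9157 CPM), whereas both 3p arms are lowest on average in Empty_Vector.

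The locus 2 opposite arm, miR-129-2-3p, was scarcer by more than an order of magnitude and ordered the groups differently. It stood at 341, 426, 354 and 395 CPM in shRNA_5bp, at 202, 269, 303 and 217 CPM in shRNA_2bp, at 252, 319, 299 and 317 CPM in shRNA, and at 124.4, 117, 148 and 130.4 CPM in Empty_Vector. Every hairpin library lay above every Empty_Vector library, and the shRNA_2bp and shRNA libraries overlapped. Its rank among all names was 104 to 119 in shRNA_5bp, 116 to 135 in shRNA_2bp, 117 to 130 in shRNA and 154 to 168 in Empty_Vector.

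The locus 1 opposite arm, miR-129-1-3p, was the scarcest. It stood at 105, 98.8, 70.2 and 84.5 CPM in shRNA_5bp, at 56.9, 78.3, 59.6 and 35.2 CPM in shRNA_2bp, at 52.8, 61, 59.4 and 54.6 CPM in shRNA, and at 30.9, 32.9, 53 and 32.8 CPM in Empty_Vector. The shRNA_5bp libraries were clear of the Empty_Vector ones, whereas 1 shRNA_2bp library, the one with 43 counts, lay within the Empty_Vector range and Empty_Vector library 3 reached into the ranges of shRNA_2bp and shRNA. The standard deviation was 17.2% of the mean in shRNA_5bp, 30.7% in shRNA_2bp, 6.79% in shRNA and 28% in Empty_Vector, against 4.65 to 8.37% for miR-129-5p.

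With shRNA_5bp all 3 arms rose against the empty vector. The log2 fold change was 1.56 ± 0.113 for miR-129-2-3p (± SE, edgeR adjusted p = 1.2e-11), from means of 379 CPM in shRNA_5bp and 130 CPM in Empty_Vector. It was 1.31 ± 0.185 for miR-129-1-3p (adjusted p = 1.7e-06) and 0.57 ± 0.067 for miR-129-5p (adjusted p = 1.92e-08). All 3 separated the groups without overlap. In this comparison 58.2% of tested miRNAs changed, 31.5% rising and 26.7% falling, and 50.3% did not overlap between groups, and the fold changes of the arms stood at the 92.8th percentile of all tested miRNAs for miR-129-2-3p, the 90.7th for miR-129-1-3p and the 76th for miR-129-5p. Without the filter on low counts the fold change of miR-129-5p was 0.34, still past the threshold.

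With shRNA_2bp the strands moved apart: miR-129-5p fell while both 3p arms rose. MiR-129-5p changed by -0.38 ± 0.067 (edgeR adjusted p = 1.56e-05), with 8178 CPM in shRNA_2bp and 10638 CPM in Empty_Vector. MiR-129-2-3p changed by 0.94 ± 0.114 (adjusted p = 7.6e-08), with 248 CPM in shRNA_2bp and 130 CPM in Empty_Vector, and miR-129-1-3p by 0.70 ± 0.189 (adjusted p = 0.00264). The 5p arm and miR-129-2-3p separated the groups, and miR-129-1-3p did not. Of all tested miRNAs 65.6% changed, 33.3% rising and 32.3% falling, and 59.2% did not overlap, so a change as such was common here. The fold changes stood at the 84.7th percentile for miR-129-2-3p, the 77.4th for miR-129-1-3p and the 33.5th for miR-129-5p. With library totals as the only scaling the fall of miR-129-5p was -0.20 and still past the threshold.

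With the unmutated shRNA all 3 arms rose, and miR-129-2-3p was among the largest rises of the table, 9th of 483 by fold change. It rose by 1.20 ± 0.109 on the log2 scale, with 297 CPM in shRNA and 130 CPM in Empty_Vector (edgeR adjusted p = 3.68e-09). MiR-129-1-3p rose by 0.65 ± 0.172 (adjusted p = 0.00468) and miR-129-5p by 0.63 ± 0.067 (adjusted p = 1.39e-08), the 14th smallest p of the table. The background was lower here, with 34.8% of tested miRNAs changed, 19.7% risen, 15.1% fallen and 32.9% not overlapping; miR-129-5p and miR-129-2-3p separated the groups, while miR-129-1-3p overlapped by a single library on each side. Thinned to the smallest library total, miR-129-1-3p no longer passed (0.57, adjusted p = 0.0602). These 3 comparisons share the same Empty_Vector libraries, and in RNA from a whole culture fewer cells that make a miRNA and less of it per cell cannot be told apart.

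**Figure D2:**
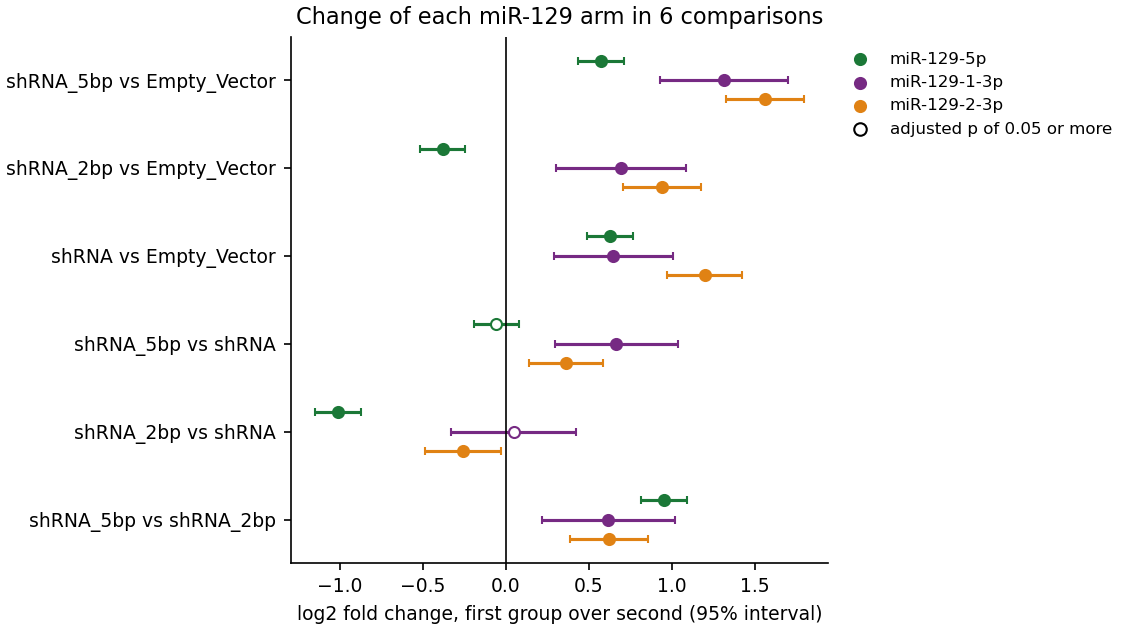
Log2 fold change of each miR-129 arm in the 6 comparisons, with 95% intervals from the edgeR fit and open circles where the adjusted p was 0.05 or more. The 5p arm crosses to the negative side with shRNA_2bp (-0.38 against Empty_Vector and -1.01 against shRNA), while the 3p arms stay positive against Empty_Vector.

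**Figure D3:**
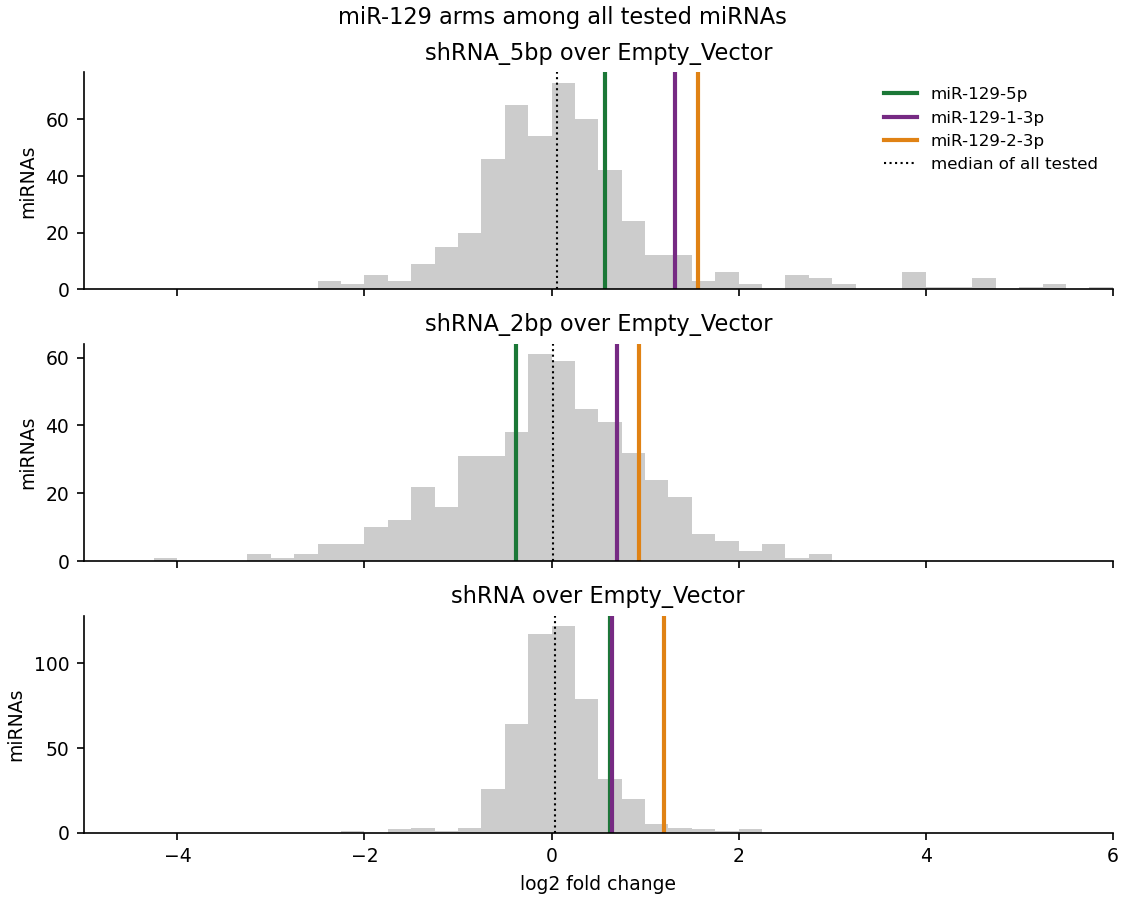
Histograms of the log2 fold changes of all 483 tested miRNAs against Empty_Vector, with the 3 miR-129 arms as coloured lines and the median of all tested miRNAs dotted (0.06, 0.01 and 0.04 from top to bottom). MiR-129-2-3p lies to the right of the median in each panel, at 1.56, 0.94 and 1.20.

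Per the labels the hairpins differ by point mutations, and the 5p arm in shRNA_2bp differed from that in both other hairpin groups. MiR-129-5p was lower in shRNA_2bp than in shRNA by -1.01 ± 0.068 on the log2 scale (edgeR adjusted p = 1.46e-13), with 8178 CPM in shRNA_2bp and 16455 CPM in shRNA. It was higher in shRNA_5bp than in shRNA_2bp by 0.95 ± 0.068 (adjusted p = 7.68e-13), with 15831 CPM in shRNA_5bp and 8178 CPM in shRNA_2bp. Between shRNA_5bp and shRNA the difference was -0.06, with a 95% interval of -0.19 to 0.08 (adjusted p = 0.501). Among all tested miRNAs, shRNA_2bp against shRNA had 64.6% changed (31.1% higher, 33.5% lower) and 58.4% not overlapping. ShRNA_5bp against shRNA_2bp had 59.6% changed (36.9% higher, 22.8% lower) and 53.0% not overlapping, and shRNA_5bp against shRNA had 53.0% changed (28.4% higher, 24.6% lower) and 48.7% not overlapping. By fold change miR-129-5p stood at the 18th percentile in shRNA_2bp against shRNA and at the 81.6th in shRNA_5bp against shRNA_2bp. The median of all tested miRNAs was -0.01 in the former and 0.16 in the latter.

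The value of miR-129-5p for shRNA_5bp against shRNA changed with several settings. It was -0.16 to -0.22, with adjusted p = 0.00615 to 0.0456, when Empty_Vector library 2 or 3 or shRNA library 1, 2 or 3 was left out, and in those fits the median of all tested miRNAs moved to between -0.16 and -0.15, beside -0.00 with all libraries. It was 0.04 with library totals alone, and -0.26 with no filter on low counts, where it passed the threshold (edgeR adjusted p = 6.68e-05). The log2 fold changes of shRNA_5bp over shRNA for the 3p arms were 0.67 ± 0.178 for miR-129-1-3p (edgeR adjusted p = 0.00296) and 0.36 ± 0.109 for miR-129-2-3p (adjusted p = 0.00669). The call of miR-129-2-3p was lost in the same 5 fits and without shRNA_5bp library 4, with values down to 0.15, and with no filter on low counts (0.16, adjusted p = 0.259).

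Between shRNA_2bp and shRNA the 3p arms were close together. MiR-129-1-3p differed by 0.05, with a 95% interval of -0.33 to 0.43 (edgeR adjusted p = 0.842). MiR-129-2-3p was lower in shRNA_2bp by -0.26 ± 0.11 (adjusted p = 0.0445), but the groups overlapped and the call was lost without Empty_Vector library 1, shRNA library 2, 3 or 4, or shRNA_2bp library 1 or 4 (adjusted p = 0.0577 to 0.189). In shRNA_5bp against shRNA_2bp, miR-129-2-3p was higher by 0.62 ± 0.114 (adjusted p = 4.55e-05) and miR-129-1-3p by 0.62 ± 0.193 (adjusted p = 0.00845), and miR-129-1-3p had adjusted p = 0.0508 without shRNA_5bp library 4. By fold change they stood there at the 70.8th percentile for miR-129-2-3p and the 70.6th for miR-129-1-3p.

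The balance of strands can be read within a library, where no scaling between libraries enters. For each read of the summed 3p arms there were 35.6, 32.7, 38.3 and 29.3 reads of miR-129-5p in the shRNA_5bp libraries, 30.02, 23.4, 25.3 and 30.4 in shRNA_2bp, 55.4, 42.9, 50.2 and 39.5 in shRNA, and 68.7, 71.6, 55.6 and 61.2 in Empty_Vector. The 5p strand thus held almost all miR-129 reads in every library, and the hairpin groups lay below the empty vector. The 3p share of all miR-129 reads was 2.89 ± 0.326% in shRNA_5bp, 3.58 ± 0.446% in shRNA_2bp, 2.12 ± 0.313% in shRNA and 1.55 ± 0.176% in Empty_Vector (SD, n = 4 each). The highest single share was 4.09% in shRNA_2bp library 2 (exact 95% binomial interval 3.81 to 4.38%) and the lowest 1.38% in Empty_Vector library 2 (1.31 to 1.45%). These intervals cover counting error only. Amplified reads were counted without molecular identifiers, so the intervals may be too narrow even for that.

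Every hairpin library therefore had fewer 5p reads per 3p read than every Empty_Vector library. For shRNA the margin was narrow, with 55.4 in shRNA library 1 and 55.6 in Empty_Vector library 3. How many of the other within-library ratios separated the groups was not counted in any comparison. The log2 ratio of 5p to 3p differed by -0.92 in shRNA_5bp, by -1.24 in shRNA_2bp and by -0.46 in shRNA from Empty_Vector, each with exact two-sided permutation p = 0.0286, the smallest that 4 libraries against 4 allow. Both mutated hairpins also lay wholly below shRNA, by -0.46 for shRNA_5bp and -0.78 for shRNA_2bp (exact p = 0.0286 each). Adjusted over the 12 ratio tests, all 5 exact permutation tests had p = 0.0571 and none passed 0.05. A limma fit over the 130 within-library ratios of the table, chosen after these values were seen, gave adjusted p = 1.62e-06 for shRNA_5bp, 9.52e-09 for shRNA_2bp and 0.00924 for shRNA against Empty_Vector. A call was common in that fit, which passed 40.8% of the ratios in shRNA_5bp, 38.5% in shRNA_2bp and 13.1% in shRNA against Empty_Vector. It also passed the miR-129 ratio in shRNA_5bp against shRNA (adjusted p = 0.00552, with 30.8% of ratios called) and in shRNA_2bp against shRNA (adjusted p = 8.45e-06, with 40.8% called). For shRNA_5bp against shRNA_2bp the difference was 0.32 with overlap between the groups (exact p = 0.0857, adjusted p = 0.129; limma adjusted p = 0.0294, with 43.8% of ratios called).

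**Figure D4:**
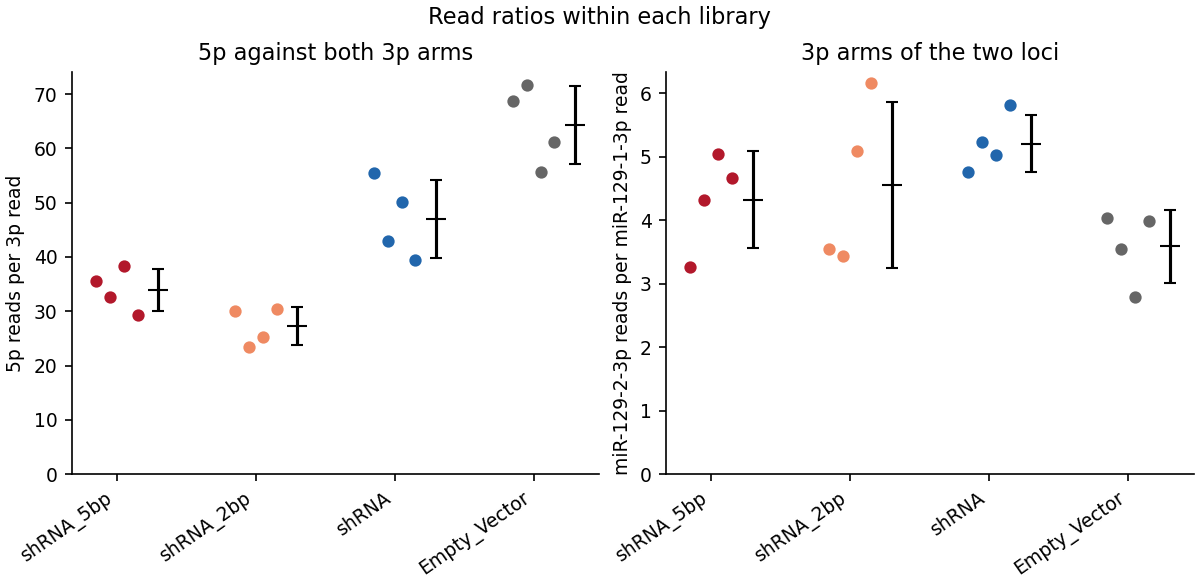
Reads of miR-129-5p per read of both 3p arms (left) and reads of miR-129-2-3p per read of miR-129-1-3p (right), with 1 point per library and the group mean ± SD (4 libraries per group). On the left every hairpin library lies below the lowest Empty_Vector library (55.6), and on the right only shRNA (4.76 to 5.81) is clear of Empty_Vector (2.79 to 4.03).

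Other miRNAs with both arms tested give the background for that shift of strands. For 119 such names the change of the rarer arm minus that of the commoner arm had a median of 0.04 in shRNA_5bp, 0.04 in shRNA_2bp and 0.05 in shRNA against Empty_Vector, so there was no common lean towards the rarer strand. The 3p minus 5p shift of miR-129 was 0.92 in shRNA_5bp, where 9.24% of those names had a larger shift towards the rarer arm and 21.8% a larger one in either direction. It was 1.24 in shRNA_2bp, where 5.04% were larger towards the rarer arm and 8.4% in either direction. In shRNA it was 0.46, with 15.1% and 25.2% larger. Against shRNA it was 0.46 in shRNA_5bp, with 18.5% larger towards the rarer arm and 39.5% in either direction, and 0.78 in shRNA_2bp, with 16.8% and 26.1%. The miR-129 shift comes from the ratios within libraries and the others from fitted fold changes of each arm. Among the 119 names, miR-299a and miR-299b had identical shifts, as had miR-486a and miR-486b, so these entered the percentages under both names.

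The balance of loci was less clear. Locus 2 gave most 3p reads in every library, with 80.9 ± 3.05% in shRNA_5bp, 81.3 ± 4.21% in shRNA_2bp, 83.8 ± 1.12% in shRNA and 77.9 ± 3.02% in Empty_Vector. In reads of miR-129-2-3p per read of miR-129-1-3p, the libraries gave 3.26, 4.32, 5.05 and 4.67 in shRNA_5bp, 3.55, 3.43, 5.08 and 6.16 in shRNA_2bp, 4.76, 5.23, 5.03 and 5.81 in shRNA, and 4.03, 3.55, 2.79 and 3.98 in Empty_Vector. Only shRNA and Empty_Vector did not overlap, with a log2 difference of 0.55 (exact permutation p = 0.0286, adjusted p = 0.0571; limma adjusted p = 0.0425). In shRNA_5bp and shRNA_2bp the differences from Empty_Vector were 0.26 (exact p = 0.229) and 0.31 (exact p = 0.286).

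MiRNAs with locus-specific arms from a pair of genes, as miR-129 has, were found by the form of their names: 28 pairs were in the table and 10 had both arms tested. In shRNA_5bp against Empty_Vector both arms rose in 1 pair, that of miR-129, and 7 pairs had a call in 1 arm only. In shRNA_2bp both rose in 2 pairs, miR-129 and miR-181a, and both fell in 1, the 5p arms of miR-128 (-1.74 for miR-128-1-5p and -1.02 for miR-128-2-5p, named after their values were seen). In shRNA both rose in 1 pair, miR-129, and 7 pairs had no call in either arm. The pair of highest level, the 3p arms of miR-125b, had log2 fold changes of -0.41 for miR-125b-1-3p and 0.78 for miR-125b-2-3p in shRNA_5bp, both past the threshold in opposite directions. The 3p arms of miR-181a had 0.99 for miR-181a-1-3p and 0.91 for miR-181a-2-3p in shRNA_2bp, and -0.07 and 0.10 in shRNA_5bp, where neither passed. Those of let-7c had -0.36 for both arms in shRNA_5bp, with let-7c-2-3p, whose counts equal those of let-7a-1-3p, alone past the threshold. Over the 10 pairs the median absolute difference between the arms of a pair was 0.90 in shRNA_5bp, 0.56 in shRNA_2bp and 0.41 in shRNA. The miR-129 pair differed by 0.25, 0.24 and 0.55. Since 3p reads that match both miR-129 loci may stand under both names, its arms may share reads, which was not tested.

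**Figure D5:**
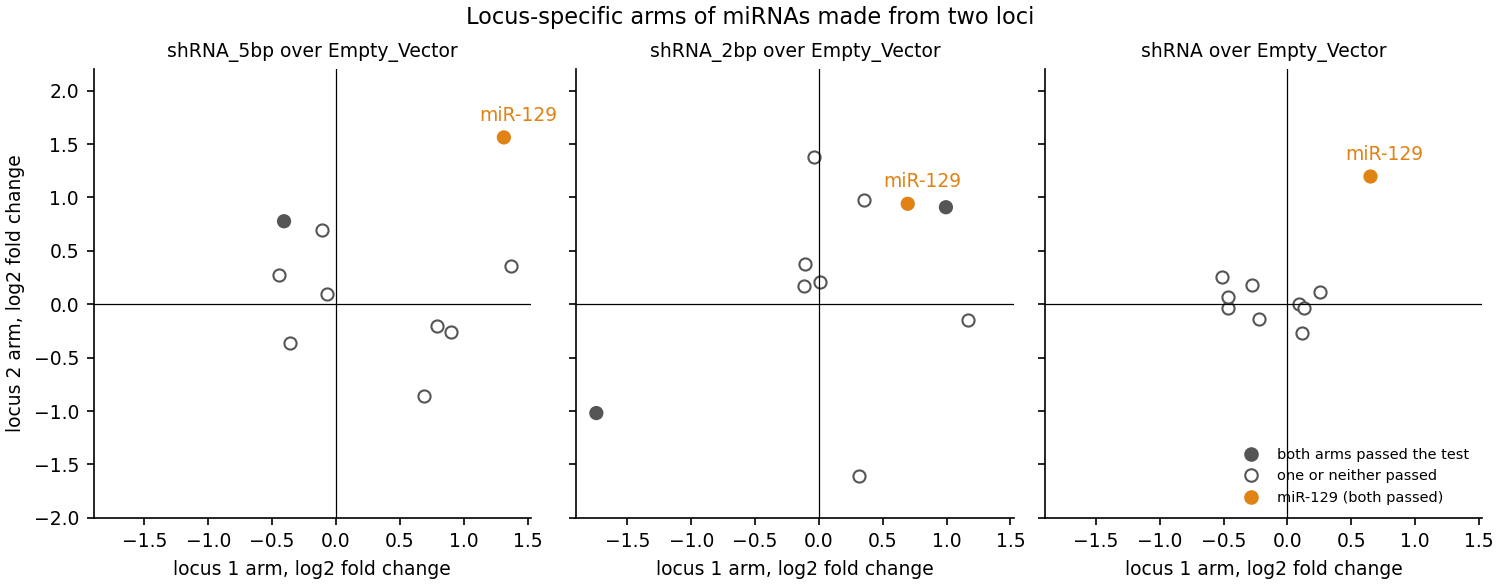
Log2 fold change against Empty_Vector of the locus 1 arm (horizontal) and the locus 2 arm (vertical) for the 10 miRNAs with both locus-specific arms tested. Filled points passed the test in both arms, and miR-129 (orange) is the filled point at 1.31 and 1.56 in shRNA_5bp, 0.70 and 0.94 in shRNA_2bp and 0.65 and 1.20 in shRNA.

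The miRNAs whose levels ran most like those of miR-129 were sought by the root mean square difference of log2 CPM, each centred on its own mean over the 16 libraries, among 226 others of at least 50 CPM. Nearest to miR-129-5p was miR-132-5p, from an activity-regulated transcript, at 0.14 against a median of 0.52 for all candidates. It rose in shRNA_5bp (0.58) and shRNA (0.57) and fell in shRNA_2bp (-0.15, edgeR adjusted p = 0.0396) against Empty_Vector. MiR-132-5p was chosen by its likeness over the same libraries, so these values are no separate support. Next came miR-3099-3p (0.18), miR-744-5p (0.18), miR-335-3p (0.19) and miR-532-5p (0.20). The partner strands of miR-129-5p were not near it, at 0.50 for miR-129-1-3p (rank 108 of 226) and 0.51 for miR-129-2-3p (rank 110).

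The 3p arms ran close to each other. Each was the second nearest to the other, at 0.31. Reads that match both loci may stand under both names, and their part in this likeness was not tested. Nearest to miR-129-2-3p was miR-132-3p at 0.25, the opposite strand to miR-132-5p. Its log2 fold changes were 1.07 in shRNA_5bp, 0.45 in shRNA_2bp and 0.95 in shRNA. MiR-181c-5p (0.33), miR-296-5p (0.34) and miR-672-5p (0.35) followed. Nearest to miR-129-1-3p was miR-296-5p at 0.31, followed after miR-129-2-3p by miR-132-3p (0.31), miR-384-3p (0.32) and miR-361-5p (0.33). Depth moved with the group in these libraries, so the distances describe the 16 libraries and carry no test. Fold changes of miRNAs picked by likeness come from the same libraries and are no separate support.

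Among 15 other miRNAs linked to synaptic scaling or neuronal activity, all tested, 7 rose and 2 fell in shRNA_5bp, 7 rose and 4 fell in shRNA_2bp, and 7 rose and 3 fell in shRNA. Among all tested miRNAs 31.5% rose and 26.7% fell in shRNA_5bp, 33.3% and 32.3% in shRNA_2bp, and 19.7% and 15.1% in shRNA. Their median log2 fold change was 0.20, 0.20 and 0.17, beside medians of 0.06, 0.01 and 0.04 for all tested miRNAs. The members that rose with every hairpin, as miR-129-2-3p did, were miR-132-3p, miR-181a-5p, which restrains the AMPA receptor subunit GluA2 in rat neurons, and miR-146a-5p, a brake on inflammatory signalling. MiR-181a-5p rose by 0.97 ± 0.066 in shRNA_5bp, 1.08 ± 0.066 in shRNA_2bp and 0.75 ± 0.065 in shRNA. MiR-146a-5p rose by 0.46 ± 0.136, 0.82 ± 0.13 and 0.48 ± 0.122 in the same order of groups. Other members went the other way: miR-485-5p fell with every hairpin, by -0.77, -0.85 and -0.65 in that order. MiR-134-5p fell in shRNA (-0.48). Both were named after their values were seen. How many of all tested miRNAs rose, or fell, with every hairpin was not counted, and those comparisons share the Empty_Vector libraries.

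Of the most abundant members of that list, miR-9-5p, which promotes neuronal differentiation, rose in shRNA_5bp (0.20) and shRNA_2bp (0.42) and stood at -0.01 in shRNA (edgeR adjusted p = 0.917). MiR-124-3p, which represses non-neuronal messages, rose in shRNA_2bp (0.33) and shRNA (0.44) and stood at 0.12 in shRNA_5bp (adjusted p = 0.152). MiR-218-5p, enriched in neurons, fell in shRNA_5bp (-0.50), shRNA_2bp (-0.20) and shRNA (-0.21). None of these abundant miRNAs had the pattern of miR-129-5p, which rose in shRNA_5bp and shRNA and fell in shRNA_2bp. MiR-212-3p, the list member that did, had 1.32 ± 0.131 in shRNA_5bp, -0.72 ± 0.154 in shRNA_2bp and 0.92 ± 0.122 in shRNA, and was named after its values were seen. The pattern was not particular to miR-129-5p. Of the miRNAs nearest to it, miR-132-5p, miR-3099-3p, miR-744-5p and miR-532-5p had it too, and miR-335-3p did not. Those were picked for their likeness, and the share of all tested miRNAs with the pattern was not counted.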

How the data were processed

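The deposited table holds raw counts of reads per mature miRNA name for 16 libraries, made by the authors. Per the submitters' processing notes, the tools were Bowtie 1.1.1, cutadapt 1.15, Trim Galore 0.6.0 and edgeR, and the build was GRCm38.p6, with no roles given. Per the labels' protocols, adapters were joined to 100 ng of RNA, followed by 15 PCR cycles and size selection.

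All 16 libraries were fitted with 1 coefficient per group in edgeR 4.0.16 (limma 3.58.1, R 4.3.3), with TMM scaling, edgeR's own filter on low counts and a robust quasi-likelihood F test. The Benjamini-Hochberg adjustment ran over 483 miRNAs. Each SE is the absolute log2 fold change divided by the root of F. Within-library log2 ratios, with 0.5 counts added to each arm, were compared by exact two-sided permutation tests adjusted over 12 tests. Libraries of a group differed beyond counting error in every pair. The fit and the ratio fit were tested on simulated data. Alternatives were other scalings, DESeq2 1.42.0, no filter, a replicate block, the 2 groups alone, thinning, and leaving out each library.

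Replicate numbers were checked as a pairing, by correlating deviations from group means between same-numbered libraries (360 miRNAs, 10 CPM or more). All 4 correlations passed 0.1 for shRNA against Empty_Vector (0.111 to 0.282) and shRNA_2bp against shRNA (0.166 to 0.198), and not in the other comparisons. Libraries with different numbers were not correlated for comparison, so these values cannot show that the numbers mark a pairing. The labels do not say what a number marks.

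Members and lists were chosen with earlier results of these data known. MiRNAs named as alike were the 5 nearest of at least 50 CPM, list members were the 4 most abundant and those risen with every hairpin, and locus pairs were the 4 of highest level.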

Additional observations from a re-analysis of the deposited data

Results flagged for a closer look

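One value stood apart from its group. MiR-129-1-3p was 53 CPM in Empty_Vector library 3, against 30.9 to 32.9 CPM in the other 3 libraries, a gap of 0.91 of the group's range, past Dixon's 95% limit for 4 values. It rests on 133 counts in the shallowest Empty_Vector library. Of 20 groups of 4 values examined, 1 met this limit, and chance flags about 1 in 20. Without that library the log2 fold change of miR-129-1-3p was 1.40 in shRNA_5bp, 0.91 in shRNA_2bp and 0.88 in shRNA against Empty_Vector, larger in each case than with it.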

How the results depend on the processing

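Of 18 fold changes, 12 kept their direction and side of the threshold under every alternative. With library totals alone, miR-129-5p in shRNA_5bp against shRNA was 0.044 and miR-129-2-3p in shRNA_2bp against shRNA -0.22 (adjusted p = 0.116); that value was -0.21 with DESeq2 and -0.24 with only the 2 groups compared, where miR-129-1-3p in shRNA_5bp against shRNA_2bp was 0.47. With no filter on low counts, shRNA_5bp against shRNA gave -0.26 for miR-129-5p, now past the threshold (adjusted p = 6.68e-05), and 0.16 for miR-129-2-3p, no longer past it (adjusted p = 0.259), and shRNA_2bp against shRNA gave -0.038 for miR-129-1-3p. Thinning every library to the smallest total, chosen after seeing the data, gave 0.57 for miR-129-1-3p and 95 called miRNAs in shRNA against Empty_Vector (168 without thinning) and -0.18 for miR-129-2-3p in shRNA_2bp against shRNA. The cause was not tested. Library totals moved the median of all miRNAs to 0.30, 0.19 and 0.18 in shRNA_5bp, shRNA_2bp and shRNA against Empty_Vector, where rises made up 72.7, 61.9 and 77.2% of calls, beside 54.1, 50.8 and 56.5% with TMM; without the filter rises were 38.2% for shRNA_5bp and shRNA_2bp.

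The limma fit over within-library ratios, also chosen after seeing the data, passed 0.05 for the 5p to 3p ratio at -0.92, -1.24 and -0.46 for shRNA_5bp, shRNA_2bp and shRNA against Empty_Vector, -0.46 and -0.78 for shRNA_5bp and shRNA_2bp against shRNA and 0.32 for shRNA_5bp against shRNA_2bp, and for the locus ratio at 0.55 in shRNA against Empty_Vector.

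Leaving out each library in turn, shRNA_5bp against shRNA ranged over -0.22 to -0.052 for miR-129-5p and 0.15 to 0.42 for miR-129-2-3p. For shRNA_2bp against shRNA the range was -0.39 to -0.17 for miR-129-2-3p and -0.15 to 0.18 for miR-129-1-3p, below 0 without shRNA library 1 or shRNA_2bp library 2. For shRNA_5bp against shRNA_2bp it was 0.48 to 0.82 for miR-129-1-3p, 0.25 to 0.39 for the 5p to 3p ratio and -0.17 to 0.11 for the locus ratio, and for the locus ratio in shRNA_5bp against shRNA -0.37 to -0.16.

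With the replicate number as a block, no call of the miR-129 arms changed; 294 miRNAs were called in shRNA_5bp and 185 in shRNA against Empty_Vector, and no count of calls moved by over 1.5 times. Depth limits miR-129-1-3p most, at 43 to 412 counts a library.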
